A study of Mus musculus with 2 samples.

Results

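The complement system was examined through 9 genes, C1qa, C1qb, C1qc, C4b, C3, Cfb, Cfi, Cd55 and C3ar1, among 20659 mouse genes with a named probe on the array. Members were fixed by name, and every probe whose RefSeq accession mapped to a listed symbol was taken. All 9 were found, with 10 probes in all, because C3 had a pair of probes.

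The study hybridised RNA of whole mouse retina, taken at postnatal day 14, to 2 Agilent arrays in 1 colour, 1 for wild type (WT) and 1 labelled Mef2d KO. Mef2d encodes a MEF2 transcription factor, and the study asked how retinal expression differs without it. The allele, the strain, the sex and the number of animals behind each RNA are not given in the sources used here. Each genotype had a single array, so differences have no replicate check and carry no p-value. An error written with ± is, unless given as an SD over spots, the scanner software's estimate for a difference between spots, and both kinds leave out variation between animals. A level is the log2 of a probe's signal over the array's 75th percentile, and a difference is the level on the array labelled Mef2d KO minus that on the WT array. Levels of different probes are not comparable with each other.

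Mef2d had differences of 0.43 ± 0.20 and 0.14 ± 0.21 by its probes, whose place relative to the deleted part is not known here, so they check nothing. Directions below are therefore those of the array labelled Mef2d KO. That array also read Xist, the RNA of the inactive X chromosome, at least 51.7-fold and at least 26.4-fold higher by its 2 probes. Neither Xist probe was well above background on the WT array. Y-linked Ddx3y differed by -0.46 ± 0.20, Eif2s3y by -0.36 ± 0.20, Uty by -0.42 ± 0.21 and Kdm5d by -0.76 ± 0.31. All of these Y-linked genes were well above background on both arrays. The share of female tissue may therefore differ between the arrays, and genotype and sex cannot be told apart. Markers of rods (8 of 8), cones (6 of 6) and bipolar cells (6 of 6) were well above background on both arrays. The scanner software's flag put 75.5% of WT spots and 69.6% of spots on the other array well above background.

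Complement is a cascade of blood and tissue proteins that tags surfaces for removal. The classical pathway starts with C1q, the lectin pathway with mannose-binding lectins and the alternative pathway with factor B and factor D. All of them split C3, whose fragments bind receptors on phagocytes, and host cells limit the cascade with regulators. In the brain and retina C1q is made mainly by microglia, and C1q and C3 take part in the removal of synapses during development.

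RefSeq promoters (GRCm38.p6) were at hand for 5 of the 9 members. The 250 bases before the start of C1qb and C1qc are shown because these genes lie next to each other and both had positive differences. That of C3 is shown because C3 differed little and is the point where the pathways meet. Capitals mark GAGGAA or its reverse complement TTCCTC, the core bound by the myeloid factor PU.1, in C1qb and C1qc, and TTGCNNAA, a form of the C/EBP motif, in C3. The windows are chr4:136886201-136886450 for C1qb, chr4:136892915-136893164 for C1qc and chr17:57228137-57228386 for C3, each on the minus strand.
C1qb: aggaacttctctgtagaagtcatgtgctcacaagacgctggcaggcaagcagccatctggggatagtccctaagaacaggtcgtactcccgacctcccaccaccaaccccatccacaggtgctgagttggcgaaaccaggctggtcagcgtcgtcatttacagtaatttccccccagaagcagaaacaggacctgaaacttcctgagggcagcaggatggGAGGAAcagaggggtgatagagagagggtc
C1qc: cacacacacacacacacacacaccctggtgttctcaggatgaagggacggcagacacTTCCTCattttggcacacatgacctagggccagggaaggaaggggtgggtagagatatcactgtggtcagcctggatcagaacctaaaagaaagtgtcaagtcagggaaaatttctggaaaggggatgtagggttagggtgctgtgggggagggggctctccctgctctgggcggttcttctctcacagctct
C3: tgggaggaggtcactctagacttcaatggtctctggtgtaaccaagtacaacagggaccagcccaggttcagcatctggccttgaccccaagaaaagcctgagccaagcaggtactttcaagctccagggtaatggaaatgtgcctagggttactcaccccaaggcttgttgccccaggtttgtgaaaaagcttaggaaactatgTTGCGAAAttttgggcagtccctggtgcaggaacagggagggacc
The PU.1 core began 30 bases before the start of C1qb and 193 before that of C1qc, and was in none of the C3, Cd55 and C3ar1 windows. It occurred on either strand in 23.3% of all 32851 promoter windows of this length. The C/EBP form began 45 bases before the start of C3 and occurred in 9.56% of windows. The MEF2 motif, in 2.92% of windows, was in none of these 5, which says only that its letters are not in these stretches. The motifs searched do not overlap each other where they matched.

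Of the 8 members well above background on each array, 0 were 2-fold or more apart, against 2.35% of the 16185 genes so measured. Genes 2-fold or more lower made up 1.74% and those 2-fold or more higher 0.618% (281 and 100 genes, or 162 and 157 with quantile normalization). The members' differences ran from -0.62 to 0.54 with a median of 0.17, against a median of -0.0060 and quartiles of -0.16 and 0.11 over all genes. Of the 8 members 5 had a positive difference, against 48.8% of all genes. With median scaling, which moved the median of all genes to 0.17, 7 of the 8 were positive, against 77.4% of all genes. The members' median was then 0.35.

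**Figure D1:**
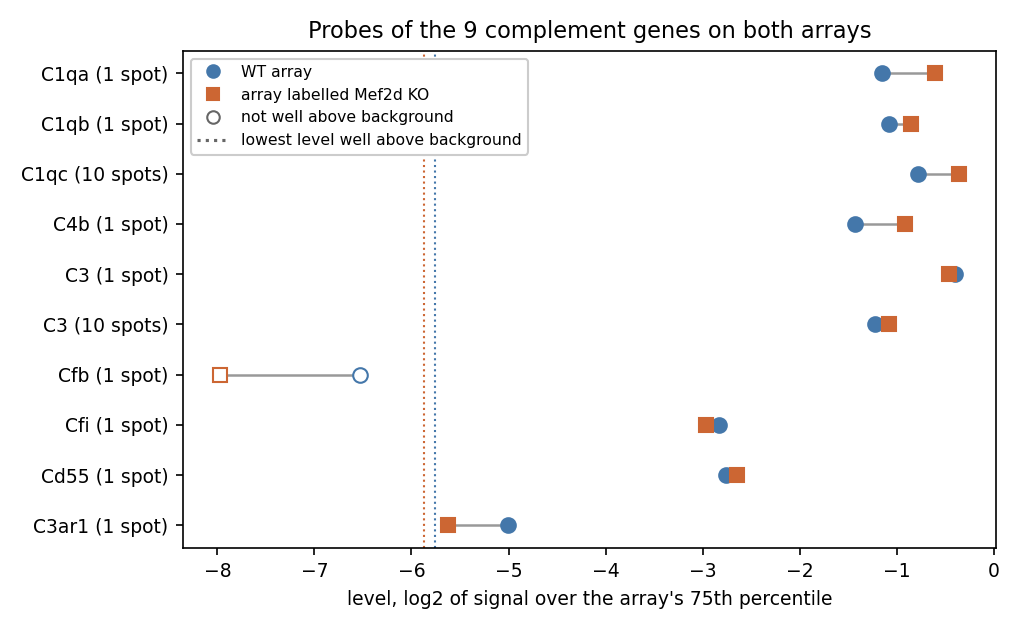
Level of each probe of the 9 complement genes (log2 of signal over the array's 75th percentile) on the WT array (blue circles) and the array labelled Mef2d KO (orange squares), with the number of spots averaged. The C1q chains and C4b sit to the right on the array labelled Mef2d KO, Cfb (open symbols) is not well above background on either array, and levels compare only within a row.

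The C1q chains form the recognition part of the classical pathway, and all 3 had positive differences. C1qa read -1.15 in WT and -0.60 on the array labelled Mef2d KO, a difference of 0.54 ± 0.20 or 1.46-fold. C1qb stood at -1.08 and -0.85, a difference of 0.23 ± 0.20 or 1.17-fold. The C1qa difference exceeded its scanner error more than the C1qb difference did, which was about as large as its error.

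C1qc was printed as 10 spots of 1 probe on each array, which gives a technical error of its own. Its WT spots had a lowest level of -0.93, a median of -0.76 and a highest of -0.66. On the array labelled Mef2d KO they had a lowest level of -0.41, a median of -0.36 and a highest of -0.29. The spots of the arrays did not overlap, and each of the 10 positions was higher on the latter. The mean difference was 0.42 ± 0.077 (SD over 10 spots), or 1.34-fold. These spots share 1 RNA per array, so they measure the array and not the animals.

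**Figure D2:**
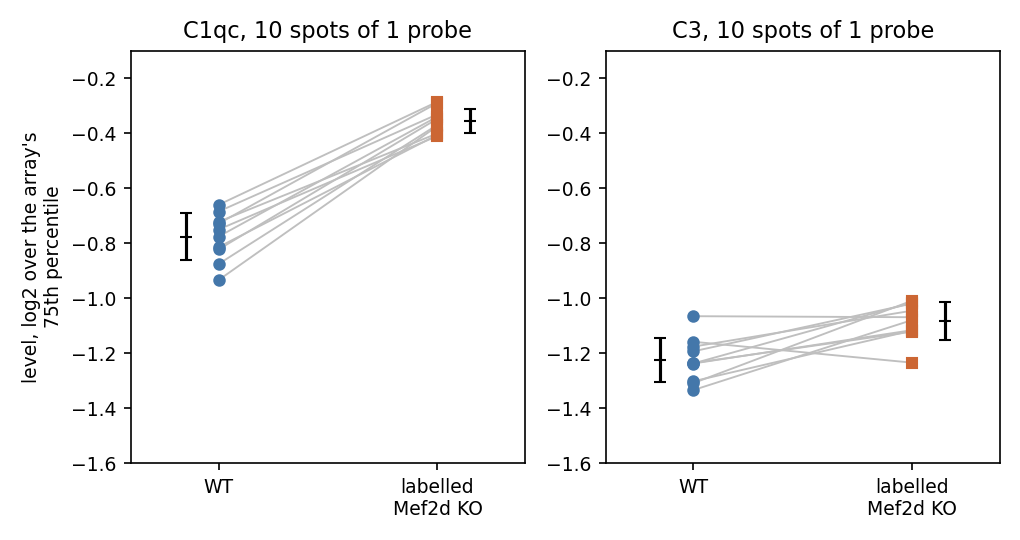
Level (log2 over the array's 75th percentile) of the 10 spots of C1qc (left) and of the 10-spot probe of C3 (right) on each array, with lines joining the same printed position and bars giving mean and SD over spots. C1qc is higher at each position on the array labelled Mef2d KO, with no overlap between arrays, while the C3 spots overlap, with 8 positions higher and 2 lower on the array labelled Mef2d KO.

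The C1q genes lie side by side on chromosome 4, and their outer neighbours in gene order were at 0.020 ± 0.21 for Ephb2 and -0.0061 ± 0.20 for Epha8, both ephrin receptor genes. One gene further out, Zbtb40 differed by 0.020 ± 0.20 and Lactbl1 by 0.70 ± 0.22. Neighbouring genes here and below were named after their values were seen. Under the 10 processing alternatives C1qa ranged from 0.53 to 0.72, C1qb from 0.18 to 0.41 and C1qc from 0.38 to 0.60, each positive in all 10. The alternatives that averaged probes, changed the filter or kept outlier spots left these values unchanged, so they are no check of them.

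C4b encodes complement C4, which C1s cuts to build the convertase that splits C3. It read -1.43 in WT and -0.91 on the array labelled Mef2d KO, a difference of 0.52 ± 0.20 or 1.43-fold. It ranged from 0.47 to 0.69 under the alternatives. Its neighbours Tnxb and Cyp21a1 differed by -0.034 ± 0.21 and -0.16 ± 0.22. C4a, a near-identical copy of C4b, had no named probe, and whether the C4b probe also reads it was not tested.

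C3, the protein split by every pathway, differed little. Its single-spot probe stood at -0.40 in WT and -0.46 on the array labelled Mef2d KO, a difference of -0.067 ± 0.20. Its other probe, printed as 10 spots, had WT levels with a lowest of -1.33, a median of -1.24 and a highest of -1.07. On the array labelled Mef2d KO the lowest was -1.23, the median -1.07 and the highest -1.01. Its spots overlapped between the arrays, and the mean difference was 0.14 ± 0.11 (SD over 10 spots). The probes of C3 had opposite signs, and the first turned to 0.11 with median scaling. Its neighbour Trip10, an adaptor of membrane bending, differed by -0.82 ± 0.20.

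Cfb, the protease of the alternative pathway convertase, was not well above background on either array. Its processed signals, 8.76 for WT and 3.42 for the array labelled Mef2d KO, lay below the lowest level called well above background, so no fold is given.

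The regulators differed by less than their scanner errors. Cfi encodes factor I, the protease that inactivates C3b and C4b. It stood at -2.83 in WT and -2.96 on the array labelled Mef2d KO, a difference of -0.13 ± 0.21 that turned to 0.047 with median scaling, 0.013 with quantile normalization and 0.026 with cyclic loess. Cd55 encodes decay-accelerating factor, which takes convertases apart on host cells. It stood at -2.75 in WT and -2.65 on the array labelled Mef2d KO, a difference of 0.11 ± 0.21.

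C3ar1, the receptor for the C3a fragment, had the most negative difference of the members, and it was dim. It stood at -5.00 in WT and -5.62 on the array labelled Mef2d KO, 0.76 and 0.25 above the lowest level called well above background on those arrays. Its difference was -0.62 ± 0.40, and it shrank to -0.14 with normexp background, to -0.20 with cyclic loess and to -0.068 with quantile normalization. Spike-in controls, whose RNA is meant to be added equally to each sample, also read lower at such levels, and the part of this in the C3ar1 value was not tested. The control at a WT level of -4.20 had a median difference of -0.74 over 35 spots, and that at -5.38 had -1.81. The control at -2.84, a level close to those of Cfi and Cd55, had -0.11, and its part in their values was not tested. From a WT level of -1.80 upwards the 6 brighter controls had median differences between -0.031 and 0.022. The WT levels of the C1q chains, C4b and C3 were also above -1.80.

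**Figure D3:**
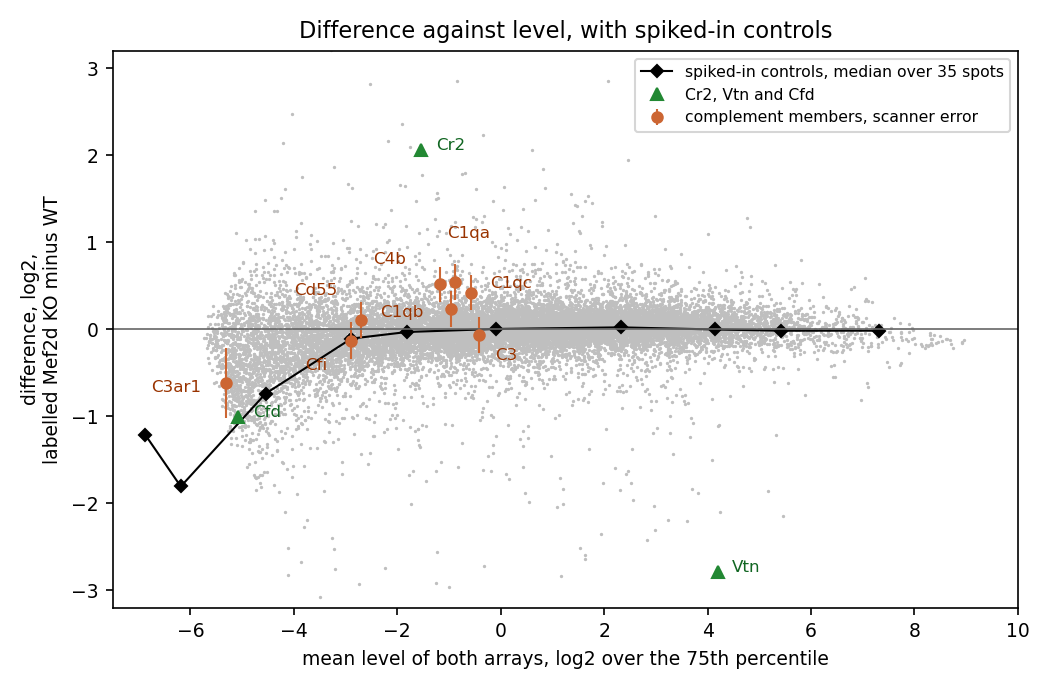
Difference (log2, array labelled Mef2d KO minus WT) against the mean level of both arrays for all genes well above background on both (grey; 16 genes lie outside the axes), with the 8 members and their scanner errors (orange), Cr2, Vtn and Cfd (green) and the spike-in controls (black). C1qa, C1qc and C4b lie above the controls of like level, while C3ar1 and Cfd lie at the dim end, where the controls read lower too.

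Of 50 other complement genes, 48 had a probe, and 31 passed the background flag on each array. Among those 31, 1 was at least 2-fold higher and 2 were at least 2-fold lower, with 28 within 2-fold, and their median was 0.013 (0.19 with median scaling). Over all genes so measured, 0.618% were at least 2-fold higher and 1.74% at least 2-fold lower. Under the alternatives the higher ones numbered 1 to 4 and the lower ones 1 to 9, with 9 reached without a filter on dim probes. Cr2, the receptor for C3d fragments on B cells and follicular dendritic cells, stood at -2.56 in WT and -0.50 on the array labelled Mef2d KO. Its difference was 2.06 ± 0.21 or 4.17-fold, its other probe gave 1.43, and normexp background gave 1.58. Of the B cell markers, Cd79a differed by -0.73 ± 0.37 and Cd79b by -0.50 ± 0.27, and Ms4a1 was not well above background on either array. Both values are from dim probes, and the 3067 genes with a mean level at or below -3 had a median of -0.21 and a lower quartile of -0.49.

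Vtn, the gene of vitronectin, which keeps the terminal complex out of membranes and binds integrins, was the member of the wider list with the most negative difference. Over 8 spots of its probe it stood between 5.54 and 5.63 in WT and between 2.74 and 2.84 on the array labelled Mef2d KO, with no overlap. The difference over the probe's spots was -2.79 ± 0.20. Cfd, the factor D protease of the alternative pathway, was dim and just past 2-fold, with levels of -4.57 and -5.58 and a difference of -1.007 ± 0.34. It was -0.33 with normexp background and -0.51 with quantile normalization, within 2-fold.

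In the initiating steps, 9 of 14 genes with a probe were read on both arrays, 5 with a positive difference. None passed 2-fold under the main setting. The lectin gene Mbl2 differed by 0.91 ± 0.29 and the C1s protease genes C1s1 and C1s2 by 0.79 ± 0.24 and 0.40 ± 0.22. All were dim, with normexp values of 0.30 for Mbl2 and 0.27 for C1s1, and a second C1s2 probe, not well above background, had the opposite sign. Mbl2 passed 2-fold with median scaling (1.09), quantile normalization (1.32) and cyclic loess (1.33). C1s1 passed it with quantile normalization (1.02) and cyclic loess (1.05). Mbl1 was read on the WT array only, at a level of -4.49. Against the lowest level well above background on the other array, this gives a bound of at least 2.60-fold lower. The spike-in controls at WT levels of -4.20 and -5.38 also read lower on that array, by -0.74 and -1.81. Their shift is not taken out of the bound, and its part in the Mbl1 value was not tested. Among genes read on 1 array only, 17% had such a bound of at least 2-fold lower and 0.567% of at least 2-fold higher, and 86.6% were on the WT array.

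Of 7 terminal complex genes 3 were read on both arrays. C6, C7, C8a and C9 were well above background on neither array. C8b, a chain of C8, differed by 0.65 ± 0.35 and Hc, the C5 gene, by -0.32 ± 0.24, both dim. C8b was past 2-fold with quantile normalization (1.18) and cyclic loess (1.08), and 0.17 with normexp background. Hc shrank to -0.059 with quantile normalization and to -0.0046 with cyclic loess.

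Among regulators, Cd59a, which blocks the last step of pore formation, was bright enough to be read clearly, at 0.53 in WT and -0.14 on the array labelled Mef2d KO. Its difference was -0.67 ± 0.20 and lay between -0.69 and -0.49 under the alternatives. Cd46, a cofactor of factor I, differed by -0.38 ± 0.32 and was dim, turning to 0.11 with quantile normalization. Among receptors Itgb2, the beta chain of complement receptors of phagocytes, differed by 0.35 ± 0.22. The probes of its partner Itgam disagreed, at 0.016, -0.023 and -0.95, and this gene was chosen after its values were seen.

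**Figure D4:**
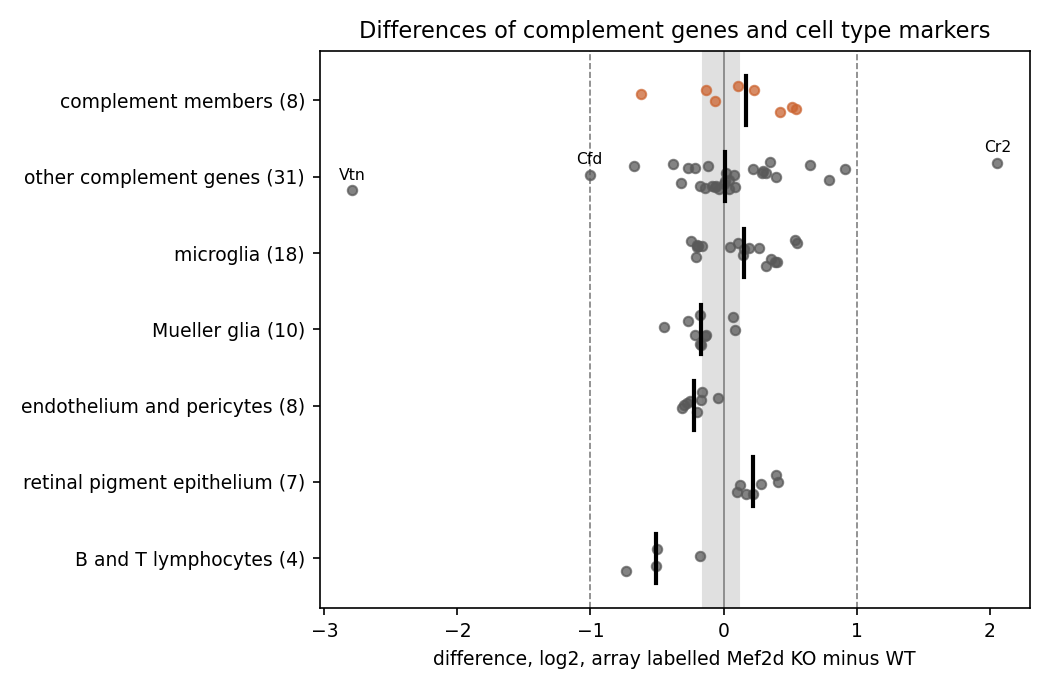
Difference (log2, array labelled Mef2d KO minus WT) of each gene well above background on both arrays, by list with the number of genes, with the list median (black bar), the quartiles of all genes (grey band) and 2-fold limits (dashed). The 8 members lie within 2-fold, Cr2, Vtn and Cfd are the other complement genes outside it, and Clu appears in 2 lists.

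Microglia markers had a median like that of the members. Of 20 listed, 18 were well above background on both arrays, 12 of them with a positive difference and none past 2-fold, and the median was 0.15 (0.030 with normexp background). Ctss, a lysosomal protease, differed by 0.55 ± 0.20, Aif1 by 0.54 ± 0.20 and Gpr34 by 0.39 ± 0.21. The 6 negative differences reached down to -0.24 ± 0.21, for Selplg. The defining genes Tmem119 and P2ry12 differed by 0.048 ± 0.21 and -0.21 ± 0.21. The summed signal of the 18, in multiples of each array's 75th percentile, was 170.1 in WT and 158.3 on the array labelled Mef2d KO, and without the brightest, Siglech, it was 18.6 and 22.7. The probes of Siglech had opposite signs, at -0.16 ± 0.20 for the one summed and 0.38 ± 0.21 for the other. Csf1r and Laptm5 also had probes of opposite sign. The microglial factor gene Spi1, which encodes PU.1, was not well above background on either array. A different number of cells and a different amount of RNA per cell cannot be told apart in whole retina, and the part of microglia number in the C1q values was not tested.

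Under the main setting, markers of other cells that may express complement differed in direction between lists. Of 10 Mueller glia markers 2 had a positive difference, with a median of -0.17. Endothelial and pericyte markers were all negative (8 of 8, median -0.22), and astrocyte markers had a median of -0.12 with 2 of 6 positive. Pigment epithelium markers were positive in 7 of 7 read on both arrays, with a median of 0.22 and a summed signal of 38.2 in WT and 42.6 on the array labelled Mef2d KO. Best1 was not well above background on either array. Of 8 border macrophage and monocyte markers 5 were read on both arrays, with a median of 0.25, while Cd163 and Ccr2 were not well above background. Over all genes 48.8% had a positive difference. Median scaling, which moved the median of all genes from -0.0060 to 0.17, was not applied to these lists. Signs of differences this small can change with it. The part of these cells in the members' values was not tested.

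**Figure D5:**
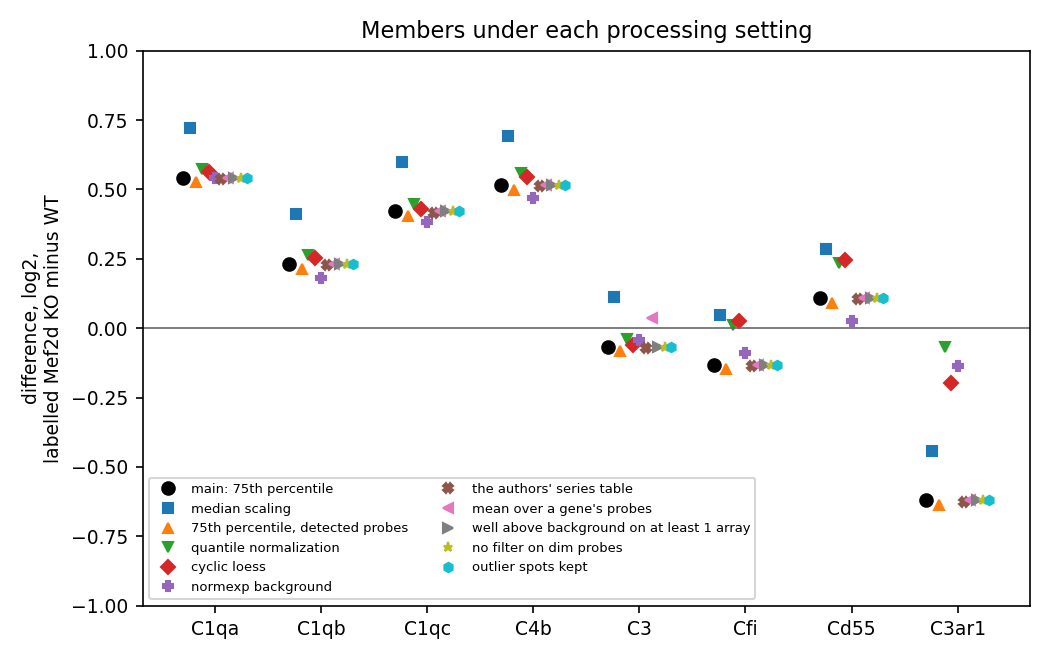
Difference (log2, array labelled Mef2d KO minus WT) of the 8 members read on both arrays, under the main setting (black) and each of the 10 alternatives. C1qa, C1qb, C1qc, C4b and Cd55 stay above 0, C3ar1 stays below 0 and C3 and Cfi cross it, and none of the 8 passes 2-fold.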

How the data were processed

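The authors deposited scanner intensity values of each array, made with Agilent Feature Extraction 10.10.1.1 and already background-subtracted and detrended, per the file headers. The RNA was amplified and labelled with Cy3, per the labels' protocols. The deposited series table holds these intensities times 1 constant per array (1.88 and 1.76), whose rule the sources used here do not give, with column medians of 155.1 and 136.6. Both its columns were used.

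Signals were taken as log2 minus each array's 75th percentile over 59305 probe spots. Control spots and outlier spots (106 and 126) were left out and spots of a probe averaged, leaving 55669 probes, of which 27231 (48.9%) were named through RefSeq accessions (GRCm38.p6). A gene took its probe with the highest mean level. A probe counted as well above background where more than 50% of its spots were flagged so. Log2 differences were read against 2-fold. The precision is limited by the number of arrays. Over 399 probes with repeat spots, the median SD of spot differences was 0.083, and 0.39 at or below a level of -3.

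Named besides the members were other complement genes at least 2-fold apart by value or bound, the 8 next largest differences among those read on both arrays, and of each marker list the defining genes and largest differences, some of which are not reported here. Members and lists were chosen with earlier results of these data known. Alternatives were other scalings, quantile normalization, cyclic loess, normexp background (offset 50, on median spot signals), the series table, mean over probes, other filters on dim probes and outlier spots kept. Scripts used R 4.3.3, limma 3.58.1, Python 3.11.15, numpy 2.4.6, pandas 2.3.3 and matplotlib 3.10.9, and were tested on simulated data.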

Additional observations from a re-analysis of the deposited data

How the results depend on the processing

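The number of members at least 2-fold higher stayed at 0 under all 10 alternatives, and that of members at least 2-fold lower stayed at 0 except without a filter on dim probes, where it was 1, the undetected Cfb. Under these alternatives 77 member values lay within the scanner error of the reported one. The other 3 were of C3ar1. Many of the 77 were fixed beforehand. Other filters cannot change a member read on both arrays, nor can mean over probes change one with a single probe. Keeping outlier spots changed no member, and the other scalings and the series table moved all genes by about the same amount. The members' median ranged from 0.10 to 0.35. Among the other complement genes, those at least 2-fold lower numbered 1 with median scaling, quantile normalization, cyclic loess and normexp background and 9 without a filter, against 2. Those at least 2-fold higher numbered 2 with median scaling and 4 with quantile normalization or cyclic loess, against 1. Over all genes, lower and higher calls were 103 and 61 with normexp background, 162 and 156 after cyclic loess, 170 and 151 under median scaling, 887 and 127 with genes of 1 array added and 1739 and 225 without a filter. Signal over background limits Cfb, C3ar1, Cfd and most initiating and terminal genes. No paired analysis was possible because each group has 1 array.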

Other observations

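The genes on either side of Vtn in gene order also had lower values on the array labelled Mef2d KO. Sarm1, a neuronal NAD hydrolase gene, differed by -1.02 ± 0.21 and Sebox, a homeobox gene, by -0.90 ± 0.20. The next genes outward, Slc46a1 and Tmem199, differed by 0.27 ± 0.20 and 0.21 ± 0.20. The choice of these neighbours came after seeing their values. The neighbour of Cr2 in gene order, Cr1l, which encodes a rodent complement regulator, differed by 0.089 ± 0.20, and Cd46 beyond it by -0.38 ± 0.32. Next to Cfb, the gene of its classical pathway counterpart C2 differed by 0.29 ± 0.21.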
